A study of Mus musculus with 18 samples.

Results

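The 83 genes described here encode the proteins of the cytosolic ribosome, the particle that translates messenger RNA in the cytoplasm. They were chosen by symbol alone, as Rpl (large subunit) or Rps (small subunit) with a number and an optional a, x, l or y, together with Rplp0, Rplp1, Rplp2 and Rpsa. They are 83 of 28252 genes with a TPM value (transcripts per 1000000, a level corrected for gene length and for library total). Of these members 51 belong to the large and 32 to the small subunit. GENCODE M21 annotated 80 as protein coding and 3, Rpl32l, Rpl6l and Rps4l, as pseudogenes. The members lie on 19 chromosomes, 4 of them on X.

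Most cytosolic ribosomal proteins are present as a single copy per ribosome, so that a growing cell makes them together and in similar amounts. Their messenger RNAs typically begin with a terminal oligopyrimidine (TOP) tract, a C followed by a run of C or T, through which their translation is controlled by nutrient signalling. An oocyte builds up ribosomes and messenger RNA while it grows inside its follicle, and the fully grown oocyte stops transcription and then completes the first meiotic division to arrest at metaphase II (MII). During maturation many stored messenger RNAs lose their poly(A) tail or are degraded.

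The RNA came from oocytes of mice of the strain C57Bl/6j x CBA/J, labelled in vivo, in 18 libraries. The 6 groups of 3 were oocytes of primordial follicles (resting), oocytes of primary follicles (beginning to grow) and MII oocytes, each with a sham and an NTY group. The labels do not spell out NTY and give no age, and no source says that replicates came from separate animals, so p-values measure only the spread between these libraries, which may be technical. The 12 libraries from primordial or primary follicles were made of RNA from laser microdissected oocytes, pooled over the caps of a stage, which was amplified and then captured with a TruSeq RNA Access kit. RNA of the 6 MII libraries came from collected oocytes and was made into libraries by Smart-seq II. Stage and library method therefore cannot be told apart between these sets, and no test was made across them.

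Total counts were 15149564 to 29205503 in the microdissected and 8652089 to 9978830 in the MII libraries, where 3 counts, the floor used here, amount to 0.103 to 0.347 counts per 1000000 counts (CPM) over all libraries. The sets also differed in marker genes of cell types. Summed markers of growing oocytes, 12 genes such as Gdf9 and Zp3, ranged from 1.96 to 767 CPM in the microdissected and from 7139 to 11695 CPM in the MII libraries. Summed markers of early oocytes, 8 genes such as Ddx4 and Lhx8, ranged from 809 to 3491 and from 1281 to 1719 CPM. These sums hide opposite directions, as 4 of the 8 were lower and 4 higher by median in MII. Ddx4 had 56.2 TPM in the microdissected and 303 TPM in the MII libraries, while Foxo3 had 376 and 78.3 TPM. Summed markers of granulosa cells, the support cells around the oocyte, ranged from 778 to 4883 CPM in the microdissected libraries and from 83.5 to 159 CPM in MII, where Foxl2, Fst, Wt1 and Amhr2 of the 12 were at 0 in every library. By median 8 of the 12 were lower and 4 higher in MII. Among the latter, Cyp19a1 had 0 TPM in the microdissected and 29.7 TPM in the MII libraries, and Esr2 had 1.08 and 41.2 TPM. Those of stroma, 6 genes, ranged from 1376 to 17910 CPM and from 0 to 2.91 CPM, with Col1a2, Col3a1 and Lum at 0 in every MII library. Markers of blood and immune cells stayed at or below 40.8 CPM. The microdissected libraries thus held summed markers of granulosa and stroma at levels above those of growing oocytes, in ranges that overlapped that of early oocytes. In primordial sham replicate 1 the early oocyte sum was 2394 CPM, beside 778 for granulosa and 1467 for stroma. In primary NTY replicate 1 it was 1638 CPM, beside 2248 and 17910.

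The ribosomal protein genes were among the most abundant transcripts of the microdissected libraries and among the less abundant ones of the MII libraries. Their summed share of all counts was 5.25, 2.41 and 3.59% in the 3 primordial sham libraries, and 6.10, 4.02 and 3.99% in primordial NTY. It was 4.04, 3.92 and 5.55% in primary sham, and 4.92, 3.79 and 2.93% in primary NTY. In MII it was 0.0703, 0.0955 and 0.110% in sham, and 0.106, 0.123 and 0.0743% in NTY. The ranges of sham and NTY overlapped at every stage, and the microdissected and MII ranges did not. Group means were 3.75 ± 1.43% (SD, n = 3), 4.70 ± 1.21%, 4.50 ± 0.904%, 3.88 ± 0.998%, 0.0920 ± 0.0202% and 0.101 ± 0.0246% in the same order, each with n = 3. The part of the somatic transcripts and of the library method in the difference between the sets was not tested. In such bulk RNA, fewer cells of a type and less RNA per cell cannot be told apart.

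**Figure D1:**
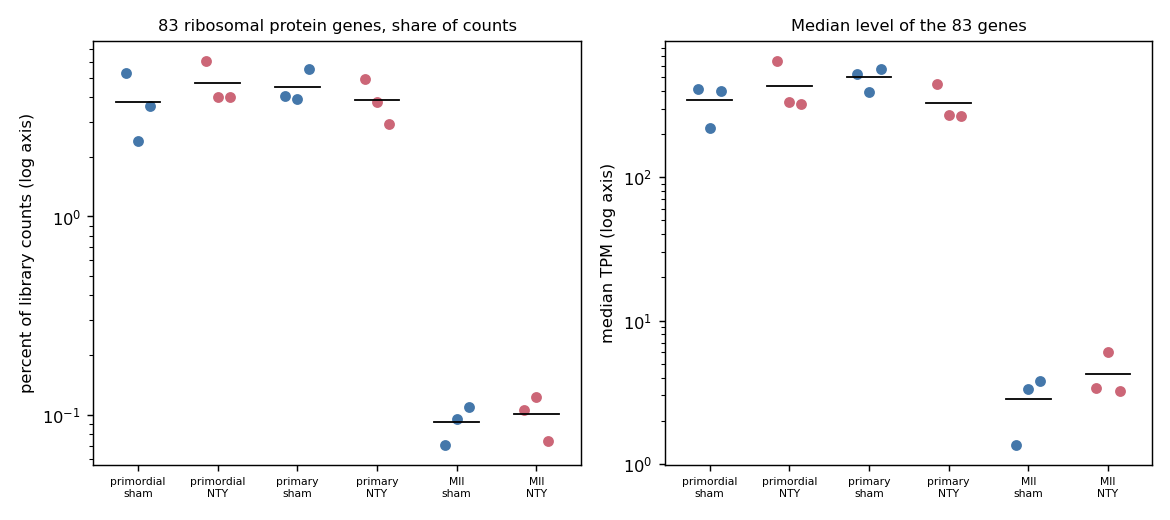
Left, percent of each library's counts that fell on the 83 ribosomal protein genes. Right, median TPM of the 83 genes. Both y axes are logarithmic, each point is a library, blue is sham, red is NTY, and the black line is the mean of 3 libraries. The 12 microdissected libraries lie between 2.41 and 6.10% and the 6 MII libraries between 0.0703 and 0.123%.

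The median member reached 221 to 652 TPM in the microdissected libraries and 1.34 to 6.00 TPM in MII. Among the genes detected in the same library, this placed the median member at percentile 90.9 to 98.2 in the microdissected and at percentile 26.5 to 44.2 in the MII libraries. Between 50 and 68 members had at least 1000 counts in a microdissected library, against 1 or 2 in an MII library. In MII, 55 to 68 members were still above 3 counts, against 69 to 80 in the microdissected libraries. A count was present in every one of the 12 microdissected libraries for 70 members, and in all 6 MII libraries for 52.

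Taken gene by gene, 46 of 83 members were lower in TPM in every MII library than in any microdissected library. Of the 25063 genes detected anywhere, 1.71% had that pattern. It needs a level above 0 in all 12 microdissected libraries, which held a count for 6147 to 13755 genes each. The detected genes were not matched to the members by level. The number of such members was 58 without primordial NTY replicate 3 and primary NTY replicate 2, which held the fewest members above 3 counts. This alternative was chosen after seeing the data. Only Rps27l was above all microdissected libraries in each MII library, a pattern held by 14.3% of the detected genes. By medians 75 members were lower in MII, 4 were higher and 4 had the same median. Of the 76 members with a median above 0 in both sets, 66 (86.8%) were over 10-fold lower in MII and 36 (47.4%) over 100-fold lower. Among all 8710 such genes the shares were 12.9% and 2.61%, and 63.5% had the higher median in MII. The median ratio of microdissected to MII TPM was 79.3 over these members and 0.330 over all such genes.

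Both subunits showed this. The median ratio was 79.3 over 44 large subunit members and 158 over 32 small subunit members. Since the methods used for counting reads that match several genes are not given, members were also split by how much of their sequence recurs in other transcripts. The share of a member's 50-base windows that also occur in a transcript of another gene had a median of 33.5%, was at least 50% for 22 members and was 0 for 3 members, among them Rpl39l and Rpl3l. The median ratio was 65.3 over 25 members with under 25% of shared windows, 77.5 over 30 members from 25 to 50%, and 260.2 over 21 members with at least 50%. The median ratio rose from the members with the least to those with the most shared sequence. The part of shared sequence in the difference between the sets was not tested. The 299 annotated ribosomal protein pseudogenes with "-ps" symbols held counts equal to 0.0511 to 2.62% of the member counts in the microdissected and 0.638 to 2.94% in the MII libraries. Pseudogenes under other symbols are not in this sum. Reads that match several genes may have been left out of the counts, so these shares do not show where such reads belong.

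**Figure D2:**
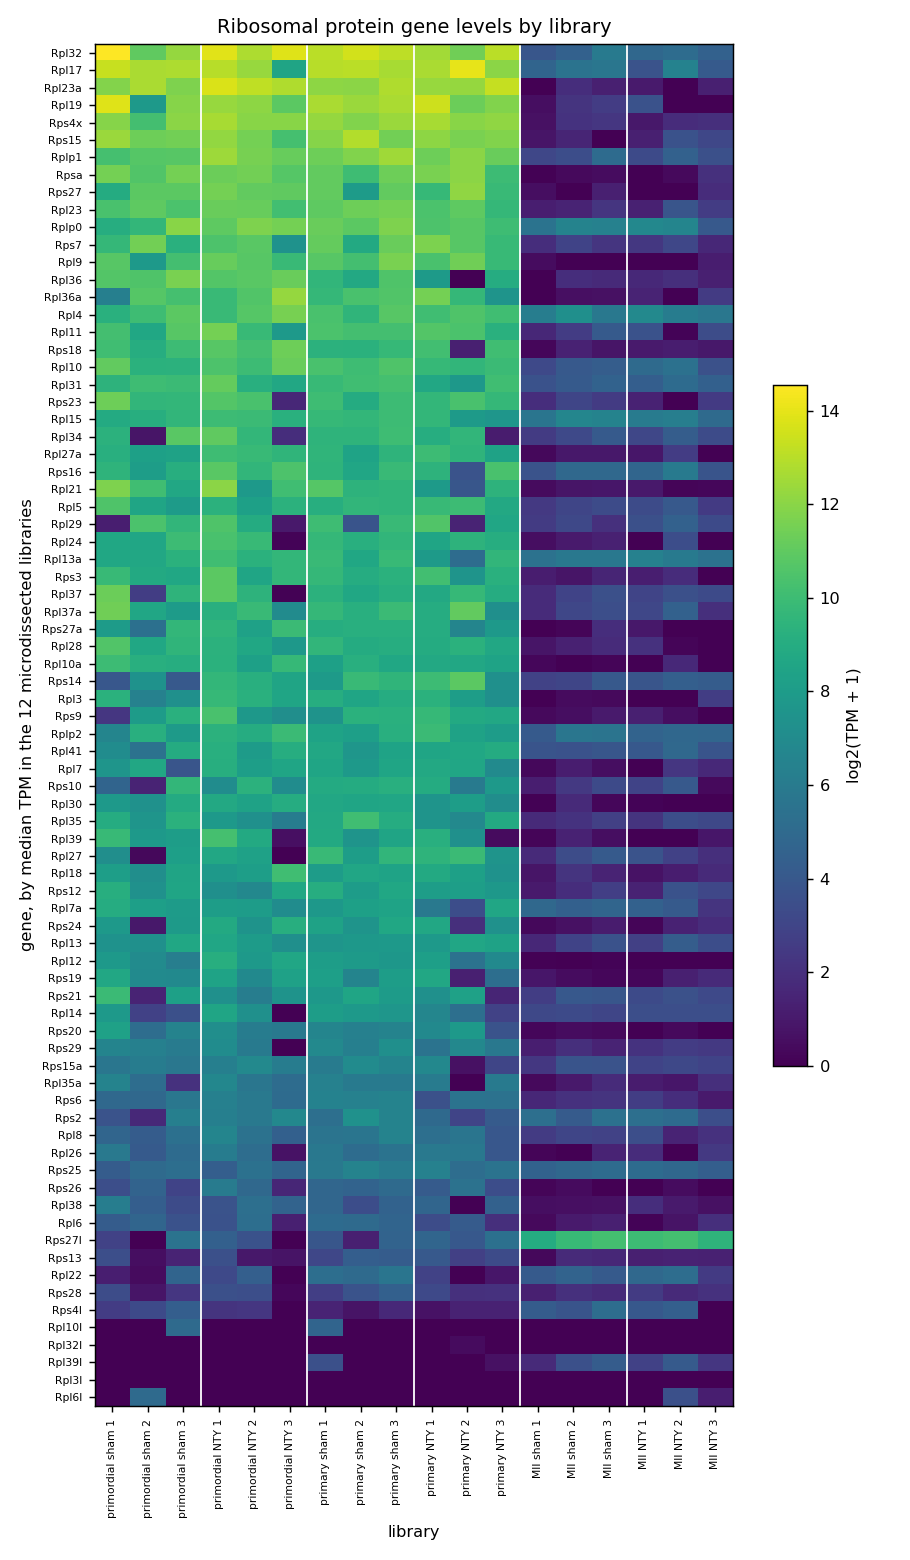
Level of 78 of the 83 genes (rows, ordered by median TPM in the 12 microdissected libraries) in each of the 18 libraries (columns, white lines between groups), colored by log2(TPM + 1). Most rows are bright in the microdissected and dark in the 6 MII columns. Rps27l, Rpl22, Rps4l and Rpl39l have the higher median in MII, and Rpl3l, Rpl10l, Rpl32l and Rpl6l are dark in nearly all columns. Single dark cells among the microdissected columns are genes lost from that library, such as Rpl24 and Rpl37 in primordial NTY replicate 3.

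Rpl32, a large subunit protein, had the highest median of the microdissected libraries. Its TPM ranged from 2087 to 24230.1 with a median of 8456, and was 13.8 to 61.1 in MII. Rpl17, which lines the exit of the peptide tunnel, had a median of 6854 TPM, ranging from 359 in primordial NTY replicate 3 to 16426 in primary NTY replicate 2, and 12.5 to 88.4 TPM in MII. Rpl23a, also at the tunnel exit, had a median of 5914 TPM (3485 to 13645) and 0 to 2.68 TPM in MII, from 0 to 8 counts. Rpl19 and Rps4x were also among the highest, and in these the MII libraries held at most 41 and 21 counts, respectively. At the lower end of the tested members in the microdissected libraries stood Rps4l, Rps28 and Rpl22. Rps28, a small subunit protein, had a median of 6.94 TPM (0.173 to 21.0) and was closer to its MII level, a median of 2.73 TPM (1.46 to 4.80), than most members.

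In MII the order of the members was another one. Rps27l was the top member in all 6 libraries and made up 44.0 to 51.4% of the summed member TPM. Rplp0, the scaffold of the ribosomal stalk that recruits translation factors, had 44.9, 90.4 and 82.8 TPM in MII sham and 112, 97.9 and 15.8 TPM in MII NTY, against a median of 1951 TPM in the microdissected libraries. Rpl4 and Rpl15 had MII medians of 70.3 and 70.2 TPM. The lowest of the 54 tested MII members were Rps19, Rps24 and Rpl7, with 3 to 38, 3 to 54 and 0 to 36 counts. The 5 highest members held 63.9 to 70.4% of the member TPM in MII and 32.5 to 51.8% in the microdissected libraries.

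The likeness of libraries over the 83 members followed the set. Spearman's rho of member TPM, given as a description across genes, which are not independent, had a median of 0.786 for the 12 pairs of libraries within a microdissected group (0.680 to 0.966) and 0.824 for the 54 pairs across microdissected groups. It was 0.849 within and 0.840 across the MII groups. Between an MII and a microdissected library it had a median of 0.110 over 72 pairs (-0.0217 to 0.246).

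**Figure D3:**
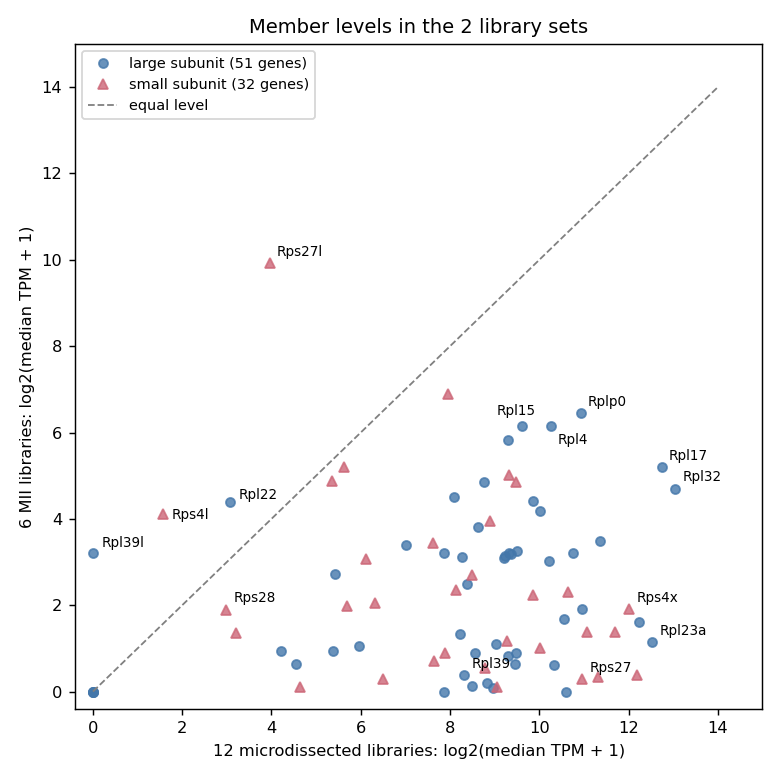
Median level of each of the 83 genes in the 12 microdissected libraries (x axis) and the 6 MII libraries (y axis), both as log2(median TPM + 1). Blue circles are large and red triangles small subunit genes, and the dashed line marks equal levels. Of all points, 4 lie above the line (Rps27l, Rpl22, Rps4l, Rpl39l), 4 genes without a median level in either set lie at the origin, and 75 lie below.

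Several members have a close relative with its own gene, and in 3 such pairs the relative had the higher median in MII. Rps27 and Rps27l encode near-identical zinc finger proteins of the small subunit, and Rps27l is known as a target of p53. Rps27 lies on chromosome 3 from 90212522 to 90213651 (minus strand) and Rps27l on chromosome 9 from 66946086 to 66949516 (plus strand) in GRCm38, the assembly also called mm10. Rps27 had 2409, 16922 and 12633 counts in primordial sham, 20283, 16068 and 17174 in primordial NTY, 15164, 2038 and 17753 in primary sham, and 7302, 33463 and 7804 in primary NTY. In MII it had 2, 0 and 5 counts in sham and 0, 0 and 9 in NTY. Rps27 was thus abundant in every microdissected library and near the floor in every MII library.

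Rps27l had the opposite order, with 24, 0 and 237 counts in primordial sham, 115, 67 and 0 in primordial NTY, 77, 9 and 158 in primary sham, and 169, 90 and 263 in primary NTY. In MII it had 1739, 2634 and 3212 counts in sham and 2862, 3320 and 1985 in NTY. On the TPM scale the median was 14.5 (0 to 45.1) in the microdissected libraries and 971 (504 to 1207) in MII, and these ranges did not overlap. Shared windows made up 46.2% of the Rps27 and 16.2% of the Rps27l transcript sequence. Sham and NTY libraries overlapped for both genes in MII.

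Rpl39, a small basic protein of the peptide exit tunnel, and Rpl39l, its relative known from male germ cells, were arranged likewise at lower levels. Rpl39 had a median of 317 TPM in the microdissected libraries, with 1630 to 11890 counts in 10 of them and 6 and 4 counts in primordial NTY replicate 3 and primary NTY replicate 3, and 0 to 8 counts in MII. Rpl39l was at 0 in 10 of the 12 microdissected libraries, with 62 counts in primary sham replicate 1 and 4 in primary NTY replicate 3. It had 8, 31 and 48 counts in MII sham and 17, 47 and 11 in MII NTY. No 50-base window of Rpl39l occurred in another gene.

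Rps4x, on the X chromosome, encodes a small subunit protein, and Rps4l is annotated as a transcribed processed pseudogene. Rps4x had 16262 to 83783 counts in the microdissected libraries and 4 to 21 in MII. Rps4l had 0 to 120 counts in the microdissected libraries, and 71, 43 and 110 in MII sham and 48, 67 and 0 in MII NTY. In MII the TPM of Rps4l thus exceeded that of Rps4x in 5 of 6 libraries. Rpl22, which binds RNA and has roles outside the ribosome, had a median of 7.35 TPM in the microdissected libraries (0 to 50.1) and of 19.9 TPM in MII (4.66 to 36.3), and the ranges overlapped. Its relative Rpl22l1, outside the symbol rule, had a median of 0.209 TPM in the microdissected libraries, with a range of 0 to 240 TPM (0 to 3204 counts). In MII the median was 0 TPM (0 to 0.286).

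The remaining relatives were scarcely present. Rpl10 had 8519 to 39239 counts in the microdissected and 73 to 298 in the MII libraries. Its relative Rpl10l, an intronless gene of male meiosis, had 208 counts in primordial sham replicate 3, 173 in primary sham replicate 1 and 0 in all other libraries. Rpl3l, of heart and skeletal muscle, was at 0 in all 18 libraries. Rpl32l had 1 count in primary NTY replicate 2. Rpl6l had 234 counts in primordial sham replicate 2, 33 in MII NTY replicate 2 and 4 in MII NTY replicate 3.

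**Figure D4:**
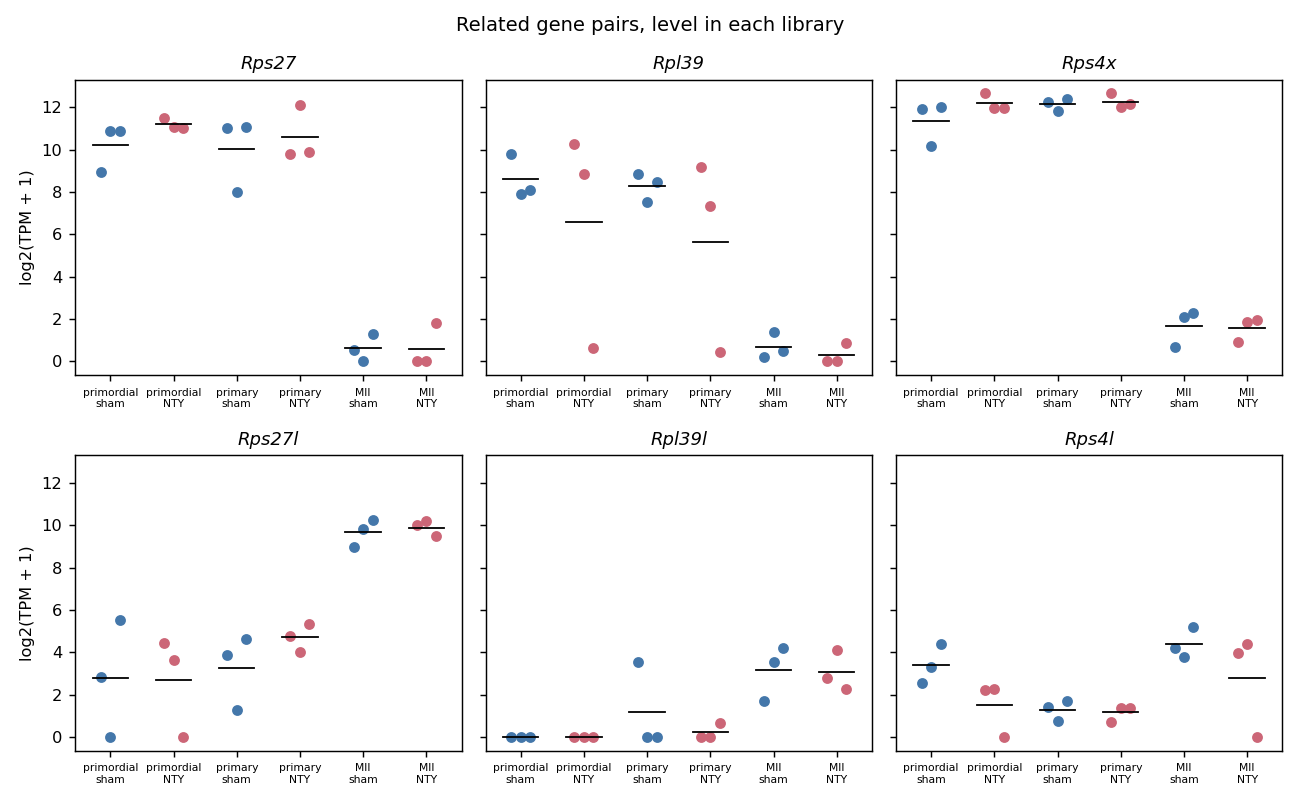
Level of 3 genes (top) and of the relative of each (bottom) in every library, as log2(TPM + 1). Blue points are sham, red points NTY, and the black line is the mean of the 3 log2 values. Rps27 and Rps4x are high in every microdissected library and low in MII. Rpl39 is likewise, except for 0.531 TPM in primordial NTY replicate 3 and 0.348 TPM in primary NTY replicate 3. The median of Rps27l is 14.5 TPM in the microdissected and 971 TPM in the MII libraries.

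Because these genes are known for the TOP tract, the annotated starts were read from RefSeq on GRCm38.p6, which held a promoter for 61 of the 83 members. On the strand of the gene, a C followed by at least 4 C or T began exactly at the annotated start in 14 of their 73 promoter entries (19.2%), against 2.51% of all 32851 entries. Within 10 bases of the start, such a tract was found in 41 of the 73 entries (56.2%), against 30.7%. Windows of 15 bases before and 15 bases from the start are shown for the first 2 pairs above, for Rpl4 and Rpl15, which are high in MII, and for Rps10 and Rps18, which carry a tract, with the run of C and T that begins at the annotated start in capitals.
Rps27, chr3:90213634-90213663, minus strand: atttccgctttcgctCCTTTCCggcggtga
Rps27l, chr9:66946071-66946100, plus strand: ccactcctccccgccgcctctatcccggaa
Rpl39, chrX:37085208-37085237, minus strand: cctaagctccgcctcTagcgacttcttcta
Rpl39l, chr16:10170213-10170242, plus strand: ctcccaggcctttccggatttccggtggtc
Rpl15, chr14:18270972-18271001, minus strand: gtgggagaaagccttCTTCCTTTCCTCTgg
Rps10, chr17:27635230-27635259, minus strand: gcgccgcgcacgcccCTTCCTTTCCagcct
Rps18, chr17:33955651-33955680, minus strand: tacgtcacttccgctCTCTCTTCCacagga
Rpl4, chr9:64173372-64173401, plus strand: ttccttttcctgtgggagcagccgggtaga

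Rps27 carried a tract of 7 bases at its start. Rps27l had none at the annotated start, although one began within 10 bases of it. Rpl15, with a tract of 13 bases, was among the highest members in MII, and so was Rpl4, whose annotated start had no tract. The median ratio of microdissected to MII TPM was 40.6 over 13 members with a tract at the start and 79.3 over 42 members with a promoter entry but none. Annotated starts can be off by some bases, so that the absence of a match says only that these letters are not at that position.

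Other genes of translation were read for comparison, from lists of textbook function. Of the 7 ribosomal proteins outside the symbol rule, 6 had a lower median in MII and 1 had the same, with a summed median of 2432 CPM in the microdissected and 118 CPM in the MII libraries. Among them Fau, whose product is a small subunit protein fused to a ubiquitin-like one, had a median of 1623 TPM (682 to 2804) against 26.5 (6.87 to 33.7). Elongation and release factors, many of them TOP genes as well, summed to a median of 6286 and 566 CPM, and 8 of 10 had a lower median in MII. Eef1a1, which brings aminoacyl-tRNA to the ribosome, had a median of 4150 TPM (2763 to 5403) against 26.0 (13.2 to 33.0). Pabpc1, the cytoplasmic poly(A) binding protein, had 2035 TPM (239 to 2951) against 3.31 (1.76 to 8.98). Initiation factors summed to a median of 21122 and 6195 CPM, with 24 of 33 lower by median in MII.

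Ribosome assembly factors were mixed. Their 45 genes summed to a median of 3387 CPM (2165 to 4146) in the microdissected and 4024 CPM (3437 to 4982) in the MII libraries, and Npm1, the nucleolar histone chaperone, had medians of 791 and 702 TPM. By medians of single genes, 25 of the 45 were higher and 20 lower in MII, among the latter Nop10 (named after its values were seen), a protein of RNA-modifying nucleolar particles, with medians of 232 and 8.12 TPM. The summed CPM of the 75 genes of mitochondrial ribosomal proteins, which build the ribosome of the mitochondrion, was lower in every microdissected library (162 to 1064) than in any MII library (1251 to 2129). By medians of single genes, 70 of the 75 were higher and 5 lower in MII. Genes of TOP mRNA and mTORC1 control, 14 in number, summed to a median of 1065 and 1320 CPM, with 6 lower and 8 higher by median in MII. Tpt1, a TOP gene, had a higher median in MII (186 TPM, 102 to 207) than in the microdissected libraries (27.6 TPM, 11.8 to 49.7).

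The question the series poses is whether expression differs between NTY and sham, and no ribosomal protein gene passed the test at any stage. Of the 83 members 78 were tested in the microdissected libraries (all but Rpl10l, Rpl32l, Rpl39l, Rpl3l and Rpl6l) and 54 in MII. By the quasi-likelihood test of edgeR with Benjamini-Hochberg adjustment over all genes, 0 members had an adjusted p under 0.05 in primordial oocytes, where 0.0095% of 10522 genes did, 0 in primary oocytes (0% of genes) and 0 in MII oocytes (0% of 12209 genes). At an unadjusted p under 0.05 the counts of members were also 0, 0 and 0, against 10.9, 8.15 and 2.29% of all genes. DESeq2 called 0 members at each stage, while it called 11.5, 6.63 and 0.238% of the genes. The median standard error of a member's log2 fold change was 1.66, 1.64 and 1.03, so that only large changes of a single member could have been called, most of all in the microdissected libraries.

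In primordial oocytes 55 of 78 members had a higher estimate in NTY and 23 a lower one, with a median log2 difference of 0.47 against 0.12 over all genes. The CPM of NTY and sham libraries did not overlap for 10 members, of which 9 (11.5%) were higher in NTY, where 5.19% of all genes were, and 1 (1.28%) lower, where 2.78% were. Rps14, whose loss causes a form of anemia in humans, had the lowest p. Its TPM was 14.7, 169 and 15.8 in sham and 804, 588 and 369 in NTY, so that all NTY libraries were higher. The log2 difference was 3.19 ± 1.91 (SE), with an adjusted p of 0.561 by edgeR. Rpl36a followed at 1.69 ± 1.31 and Rpl23a at 1.21 ± 0.96, with adjusted p of 0.697 and 0.711. Marker genes moved beside these estimates: summed granulosa markers had a median of 830 CPM (778 to 3281) in primordial sham and 3994 CPM (1944 to 4883) in primordial NTY, and oocyte growth markers 198 CPM (61.5 to 767) and 34.4 CPM (1.96 to 248). Early oocyte markers had medians of 1814 CPM (1619 to 2394) and 1204 CPM (809 to 3491). Stroma markers had medians of 1467 CPM (1376 to 8092) in primordial sham and 4818 CPM (2809 to 12988) in primordial NTY, ranges that overlapped. The part of these markers in the estimates was not tested.

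In primary oocytes the estimates were balanced, with 44 members higher and 34 lower in NTY and a median log2 difference of 0.14 against -0.10 over all genes. Groups did not overlap for 12 members, 2 higher (2.56%, against 1.24% of genes) and 10 lower (12.8%, against 13.8%). Rpsa, a small subunit protein also known as the laminin receptor, had 2123, 1065 and 2593 TPM in sham and 3224, 4136 and 993 TPM in NTY, a log2 difference of 1.12 ± 0.90 with an adjusted p of 0.933 by edgeR. Rpl22 had 37.4, 32.1 and 50.1 TPM in sham and 6.40, 0 and 0.814 TPM in NTY, a log2 difference of -3.60 ± 3.18 with an adjusted p of 0.970. Its ranges did not overlap, yet the error was nearly as large as the difference. Rpl21 stood at -1.27 ± 1.20 with an adjusted p of 0.988. Summed granulosa markers had medians of 1857 CPM (1765 to 3365) in primary sham and 2248 CPM (1041 to 2898) in primary NTY, ranges that overlapped. By gene the direction was the other one, with a median log2 difference of -0.92 over the 10 granulosa markers tested. Oocyte growth markers had medians of 302 CPM (296 to 343) and 138 CPM (35.4 to 313). Early oocyte markers went the other way from the growth markers, at 1059 CPM (1036.5 to 1662) and 1638 CPM (1447 to 1758). Stroma markers had medians of 2632 CPM (2323 to 5190) in primary sham and 4125 CPM (2290 to 17910) in primary NTY, ranges that overlapped. The part of these markers in the estimates was not tested.

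In MII oocytes, where replicates lay closer together, 35 of 54 members had a higher and 19 a lower estimate in NTY, with a median log2 difference of 0.28 against 0.00 over all genes. For 3 members, among them Rpl14 and Rpl29, every NTY library was above every sham library in CPM (5.56%, against 2.3% of genes) and for 0 it was the reverse (against 6%). Rpl10, which joins the subunit last and completes its active centre, had 73, 113 and 126 counts in sham and 224, 298 and 78 in NTY, ranges that overlapped, at a log2 difference of 1.00 ± 0.58 with an adjusted p of 1.00 by edgeR. The difference rests on 73 to 298 counts per library.

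The passage from primordial to primary follicle, the activation of the resting oocyte, was compared within each treatment. In sham, 0 members passed the edgeR test (0.0095% of genes) and 0 had an unadjusted p under 0.05 (9.28% of genes), and DESeq2 called 0 members against 7.31% of genes. The estimates were split, 43 higher and 35 lower in primary follicles, at a median of 0.15 against 0.29 over all genes. Groups did not overlap for 12 members, 11 higher (14.1%, against 14.5% of genes) and 1 lower (1.28%, against 1.1%). Rps14 again had the lowest p, with 247, 930.1 and 730.2 TPM in primary sham against 14.7, 169 and 15.8 in primordial sham, a log2 difference of 3.12 ± 1.90 with an adjusted p of 0.707 by edgeR. This comparison shares its primordial sham libraries with the comparison of NTY and sham above. Rps4l was at -3.15 ± 2.57 (adjusted p = 0.912) and Rpl27 at 1.86 ± 2.17 (adjusted p = 1.00). The median of the granulosa sums was 830 CPM (778 to 3281) in primordial and 1857 CPM (1765 to 3365) in primary sham. That of the oocyte growth sums was 198 CPM (61.5 to 767) and 302 CPM (296 to 343). Early oocyte sums had medians of 1814 CPM (1619 to 2394) and 1059 CPM (1036.5 to 1662), and stroma sums 1467 CPM (1376 to 8092) and 2632 CPM (2323 to 5190). All these ranges overlapped. By gene, the median log2 difference was -0.21 over growth, -1.02 over early oocyte, 2.15 over granulosa and -0.27 over stroma markers.

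In NTY, 28 members had a higher and 50 a lower estimate in primary follicles, at a median of -0.32 against 0.08 over all genes. Again 0 members passed the edgeR test (0% of genes) and DESeq2 called 0 (10.7% of genes). The 1 member with an unadjusted p under 0.05, where 9.97% of genes had one, was Rpl21, a large subunit protein. It had 4269, 231 and 1117 TPM in primordial NTY and 244, 13.9 and 685 TPM in primary NTY, ranges that overlapped, at a log2 difference of -2.54 ± 1.25 with an adjusted p of 0.496 by edgeR. Rpl17 was at 1.42 ± 1.02 (adjusted p = 0.702 by edgeR). Groups did not overlap for 6 members, all lower in primary follicles (7.69%, against 4.61% of genes), and for 0 in the other direction (against 2.51%). The median of the granulosa sums was 3994 CPM in primordial and 2248 CPM in primary NTY. That of the oocyte growth sums was 34.4 and 138 CPM, and that of the early oocyte sums 1204 and 1638 CPM. Stroma sums had medians of 4818 CPM (2809 to 12988) and 4125 CPM (2290 to 17910). The part of these cell types in the member estimates was not tested.

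The NTY effect was also compared between the stages. For the difference, primary minus primordial, 0 members passed the edgeR test (0.0095% of genes), 0 had an unadjusted p under 0.05 (11.8% of genes) and DESeq2 called 0 (11.6% of genes). The median of the members was -0.51, beside -0.56 over all genes, with 25 estimates above and 53 below 0. Rpl17 was at 1.66 ± 1.42 and Rps2 at -3.79 ± 3.84, with adjusted p of 0.752 and 0.814 by edgeR.

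**Figure D5:**
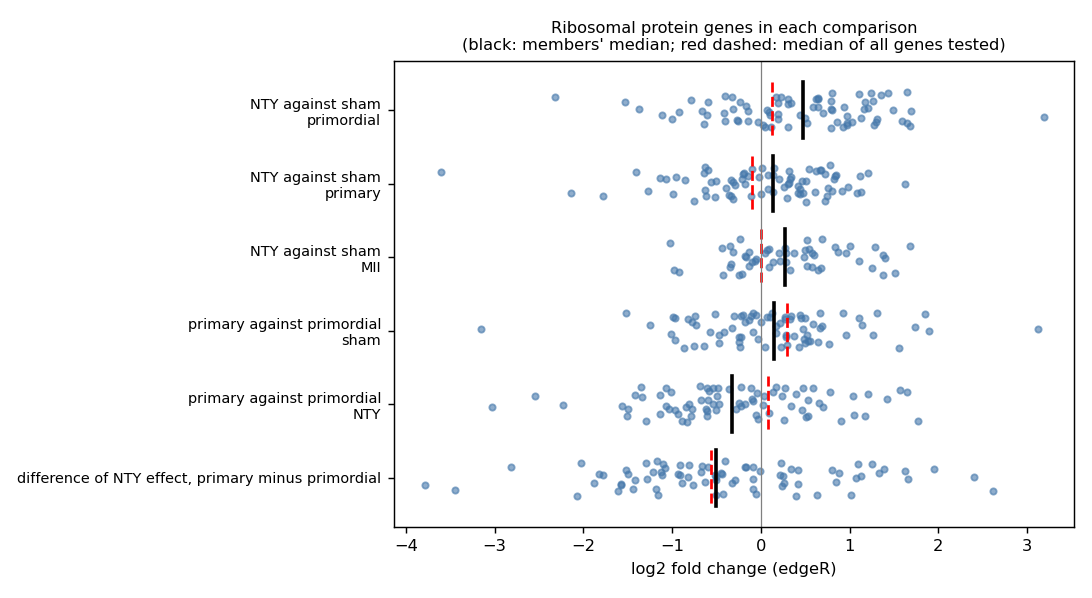
Estimated log2 fold change of each tested ribosomal protein gene (points, spread vertically for legibility) in the 6 comparisons, 78 genes in the microdissected libraries and 54 in MII. Black bars are the medians of the members and red dashed bars the medians of all genes tested. The medians of the members lie between -0.51 and 0.47, and no point passed the test.

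The lists around the ribosome gave the same counts. Of elongation and release factors, initiation factors, ribosome assembly genes, mitochondrial ribosomal protein genes, genes of TOP mRNA and mTORC1 control and ribosomal proteins outside the rule, 0 genes passed the edgeR test in any of the 6 comparisons, in either direction. Among the initiation factors, Eif3a, the scaffold of a factor that prepares the small subunit, was at a log2 difference of 2.94 ± 1.33 in primordial NTY against sham with an adjusted p of 0.424 by edgeR. In MII oocytes the lowest p of the initiation factors was that of Eif4b, a helper of the cap-binding helicase. It stood at 0.82 ± 0.32 with an adjusted p of 1.00 by edgeR. Eef1g, a subunit of the exchange factor for Eef1a1, had the lowest p of the elongation factors in primordial oocytes, at 2.27 ± 1.15 with an adjusted p of 0.472.

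By a cut at 3 counts, dropout from single microdissected libraries touched few members. A gene was taken as lost from a library where it had 3 counts or fewer beside at least 1000 in another library of the same group. Among primordial libraries this befell 1 of 64 members in sham (1.56%) and 4 of 65 in NTY (6.15%), where 41.2 and 40.8% of all genes with at least 1000 counts in a library of the group were lost. These genes were not matched to the members by level, and the difference was not tested. Among primary libraries it befell 0 of 68 members in sham and 2 of 65 in NTY (3.08%), where 14.3 and 40.5% of all such genes were lost. In MII it befell 0 of 2 members in each group. Rpl27 had 1045, 3 and 2883 counts in primordial sham. In primordial NTY replicate 3, Rpl14, Rpl24, Rpl27 and Rpl37 had 0, 1, 0 and 1 counts beside 1833 to 21472 in the other libraries of the group. In primary NTY replicate 2, Rpl35a and Rpl36 had 1 and 0 counts beside 778 to 1861. These libraries also had the fewest members above 3 counts, 69 and 74. Members that fell to a few counts above the cut are not among these losses. Rpl29 had 9 counts in primordial NTY replicate 3, beside 11378 and 3993 in the same group. Rps18 had 26 counts in primary NTY replicate 2, beside 22965 and 21532.

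Within groups, the standard deviation of log2(CPM + 1) had a median of 1.39 over the 41 members in the middle of the members' range of expression, and of 2.47 over the 1704 other genes in the same range of mean level. In MII these were 0.662 over 41 members and 0.922 over 5843 other genes. The members differed among themselves in this. Across all 12 microdissected libraries Rpl13 had a standard deviation of 0.522 in log2(TPM + 1), with 153 to 402 TPM. Rpl29 had the widest spread at 4.03, from 1.01 TPM in primordial NTY replicate 3 to 1590.0 TPM in primary NTY replicate 1, with 4 of the 12 libraries at 12.6 TPM or below. High and low libraries of Rpl29 fell in both treatments and both stages.

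The balance of the subunits differed between the sets. The summed TPM of large subunit genes was 1.68 to 2.77 times that of small subunit genes in the microdissected libraries and 0.392 to 0.604 times in MII. Without Rps27l it was 1.68 to 2.77 and 1.25 to 2.41, ranges that overlapped. Without Rps27l the members made up 0.0643 to 0.136% of TPM in MII, and with it 0.115 to 0.253%.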

How the data were processed

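RNA sequencing of mouse oocytes gave 18 libraries, 3 in each of 6 groups, and the groups were taken from the labels. The files deposited by the authors hold raw read counts, as whole numbers, for 53715 genes, and a TPM table that covers 28252 genes. The submitters' processing notes name Trim Galore 0.4.1, TopHat2, featureCounts and mm10. The annotation, the strand setting and the treatment of reads that match several genes are not given in the sources used here. The members and lists were chosen with earlier results of these data known. They were matched by symbol in the TPM table and joined to the counts by gene identifier. Library totals, depths and shares were computed from all genes with counts, and each TPM value stayed as deposited.

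Counts were scaled by TMM, filtered by group with filterByExpr and tested by robust quasi-likelihood fits (edgeR 4.0.16, R 4.3.3), with Benjamini-Hochberg adjustment at 0.05. The 12 microdissected libraries shared a fit, and the 6 MII libraries had their own, with 10522 and 12209 genes tested. Alternatives were RLE factors, DESeq2 1.42.0 without its filter on Cook distances, limma 3.58.1 with voom and quality weights, limma on log2(TPM + 1), no filter beyond a single count, a filter that asked for 10 counts throughout, the replicate number as a block, fits of 2 groups alone, primary NTY replicates 2 and 3 summed (their library codes are alike), and each library left out. Same-numbered libraries did not deviate together (correlations of -0.063 to 0.066), so the numbers were not taken to pair them.

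Members named with a fold change are among the 3 with the lowest unadjusted p in a comparison. Levels are given for any member, and by library for the highest and lowest 3, for relatives of the same number and for members lost from a library. Some genes are counted in every total but are not reported here by name. Of each list around the ribosome, genes among the 2 with the lowest p in a comparison could be named with a fold change. Pooled shares carry no test. Coordinates, gene types and shared 50-base windows came from GENCODE M21 on GRCm38, and start sites from RefSeq on GRCm38.p6, which matched 61 members. Descriptions used Python 3.11.15 with pandas 2.3.3 and scipy 1.17.1.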

Additional observations from a re-analysis of the deposited data

How the results depend on the processing

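The count of 0 members past the edgeR threshold was 0 under 49 other settings and 42 settings that left out a library, over the 6 comparisons. The direction of each member named with a fold change stayed the same in 144 and 126 such repeats. The summed share of the members, as a log2 difference of group means, changed sign for NTY against sham in primary oocytes when totals were scaled by TMM, from -0.22 to 0.29. Leaving out each library gave -0.42 to -0.039 there, 0.089 to 0.65 for primordial oocytes (0.33 with all libraries), -0.033 to 0.31 for MII oocytes (0.13), 0.026 to 0.59 for primary against primordial follicles in sham (0.26) and -0.49 to -0.047 in NTY (-0.28). In sham the other settings gave -0.060 to 0.32. With the replicate block, 0 members passed in any comparison. The count of 46 members lower in every MII library was 46 on CPM, 58 without the 2 microdissected libraries with the fewest members, and 46 to 54 with each library left out in turn, settings chosen after seeing the data. Depth limits the MII values most, where 3 counts are 0.301 to 0.347 CPM.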
